A study of Mus musculus with 2 samples.

Results

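AP-1 is a dimeric transcription factor built from Fos and Jun proteins, and its genes belong to the immediate early genes, which cells switch on without new protein synthesis when a growth factor, cytokine or stress reaches them. The group examined here held 10 of these genes, namely Fos, Fosb, Jun, Junb, Egr1, Ier2, Atf3, Dusp1, Zfp36 and Nr4a1. Each was found through every array probe set that the platform annotation assigns to that gene alone, which gave 11 probe sets for the 10 genes, out of 20380 such probe sets for 12393 genes. Jun had 2 probe sets and the other 9 genes had 1 each.

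Growth signals that pass through the Ras and ERK kinases reach the promoters of these genes by way of serum response factor and its Elk partners, while cAMP and stress kinases act on them through CREB and ATF proteins. The transcripts last only briefly, since products of the same response, such as the phosphatase DUSP1 and the mRNA decay factor encoded by Zfp36, switch the signal off and clear short-lived mRNA. In mammary tissue they respond to growth factors of the epithelium, and in any solid tissue they can also be induced by cutting and handling.

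Both tumor pools came from female FVB wild-type littermates that were 5 weeks old at the start. All mice received 15 mg medroxyprogesterone acetate, a long-acting progestin, under the skin and then 4 weekly gavage doses of 1 mg DMBA, a polycyclic carcinogen. From the day after the last dose, control mice ate standard chow and the GW9662 mice ate chow with 0.1% GW9662, an irreversible antagonist of the nuclear receptor PPARγ. RNA of excised tumors was pooled from 5 mice per diet and read on 1 Affymetrix mouse array per diet. With 1 array of pooled RNA per diet, no error between mice and no test could be given, so every difference below is described by its size. In whole tumor RNA, fewer cells of a type and less RNA per cell cannot be told apart.

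The 2% trimmed mean signal was 500.2 on each array. The only yardstick of spread was how far probe sets for 1 gene departed from each other, an SD of 0.36 in the log2 ratio of GW9662 over control among 2639 genes. It holds no variation between mice. Markers of luminal epithelium were bright, with summed signals of 46445 in control tumors and 46455 in GW9662 tumors over 10 genes, but not all were level. The keratin gene Krt8 read 9496.4 and 9664.7, whereas Elf5, a factor of milk-secreting cells, read 4138.4 and 2040.0 at the brighter of its probe sets, 2.03-fold lower. The estrogen receptor gene Esr1 read 13.3 and 13.2, no more than probe sets for olfactory receptors (up to 25.8), which serve as a blank. With 1 probe set at that level, neither absence nor a difference of Esr1 between the diets is read from it. Milk protein genes, products of luminal cells, summed to 42183 and 10350 over 8 genes, and 6 of the 7 with a signal of at least 300 were at least 3-fold lower. Among them Csn1s1, a casein, read 9944.5 and 609.1. All 12 adipocyte markers read were at least 3-fold lower in GW9662 tumors, with summed signals of 60592 and 7507, and none was at 0. Skeletal muscle markers summed to 12118 and 1453 over 14 genes, and none was at 0.

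Promoter sequence was available for 8 of the 10 genes, all but Egr1 and Ier2. Within the 250 bases before the annotated start site, 6 of these 8 held TGACG on either strand, the core of the cAMP response element (CRE) that CREB and ATF proteins bind. Among all 32851 promoter windows of that length, 17.77% held it. The 8 windows were also richer in G and C, with a median of 65.8% against 52.4% over all windows, and the part of base composition in the match was not tested. The full element TGACGTCA, which contains that core on both strands, was found in 1 of the 8 windows, that of Dusp1, and in 1.55% of all windows. A CArG box, the core that serum response factor recognizes, lay in the Zfp36 window and in 1.47% of all windows. An EGR element, GCGGGGGCG, was present in the windows of Fosb, Zfp36 and Nr4a1 and in 2.57% of all. No window of these genes held the AP-1 element TGAGTCA, which 4.46% of all windows hold, its variant TGAATCA (2.43%), or the NR4A element AAAGGTCA (1.34%). A TATAAA box was found before Fos and in 12.37% of all windows. All motifs were searched on both strands within these 250 bases, and sites farther upstream were not searched. A match is a run of letters and not evidence of binding.

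The windows of Fos and Dusp1 are shown because these genes had the highest and the lowest log2 ratio of the group, and that of Zfp36 because it holds the CArG box. The sequences are from RefSeq, build GRCm38.p6, run 5′ to 3′ on the strand of the gene and end at the base before the start site. Capitals mark TGACG cores in Fos and Dusp1, including the full element in Dusp1, and the CArG box in Zfp36.
Fos, chr12:85473640-85473889, plus strand: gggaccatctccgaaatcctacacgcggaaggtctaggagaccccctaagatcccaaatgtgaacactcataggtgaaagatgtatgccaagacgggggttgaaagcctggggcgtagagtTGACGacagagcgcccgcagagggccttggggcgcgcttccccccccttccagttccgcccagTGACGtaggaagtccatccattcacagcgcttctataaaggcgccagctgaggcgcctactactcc
Dusp1, chr17:26508473-26508722, minus strand: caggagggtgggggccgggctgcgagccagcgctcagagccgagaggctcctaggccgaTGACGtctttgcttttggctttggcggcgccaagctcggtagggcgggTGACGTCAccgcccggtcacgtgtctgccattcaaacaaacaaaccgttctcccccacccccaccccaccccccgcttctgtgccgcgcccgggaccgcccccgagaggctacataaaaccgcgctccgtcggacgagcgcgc
Zfp36, chr7:28379229-28379478, minus strand: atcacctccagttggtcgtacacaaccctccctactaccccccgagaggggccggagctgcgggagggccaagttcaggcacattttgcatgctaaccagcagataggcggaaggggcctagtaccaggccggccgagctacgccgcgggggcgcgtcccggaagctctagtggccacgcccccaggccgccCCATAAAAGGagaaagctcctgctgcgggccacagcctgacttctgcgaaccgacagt

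In Fos the cores began 129 and 66 bases before the start site, the nearer one ahead of the TATAAA box at 33 bases. In Dusp1 the full element began at 143 bases and a further core at 191 bases. The CArG box of Zfp36 began 58 bases before the start. TGACG cores lay in 6 of the 8 windows, so they are not particular to Fos and Dusp1. Whether the cores bear on the signals of either gene was not tested.

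**Figure D1:**
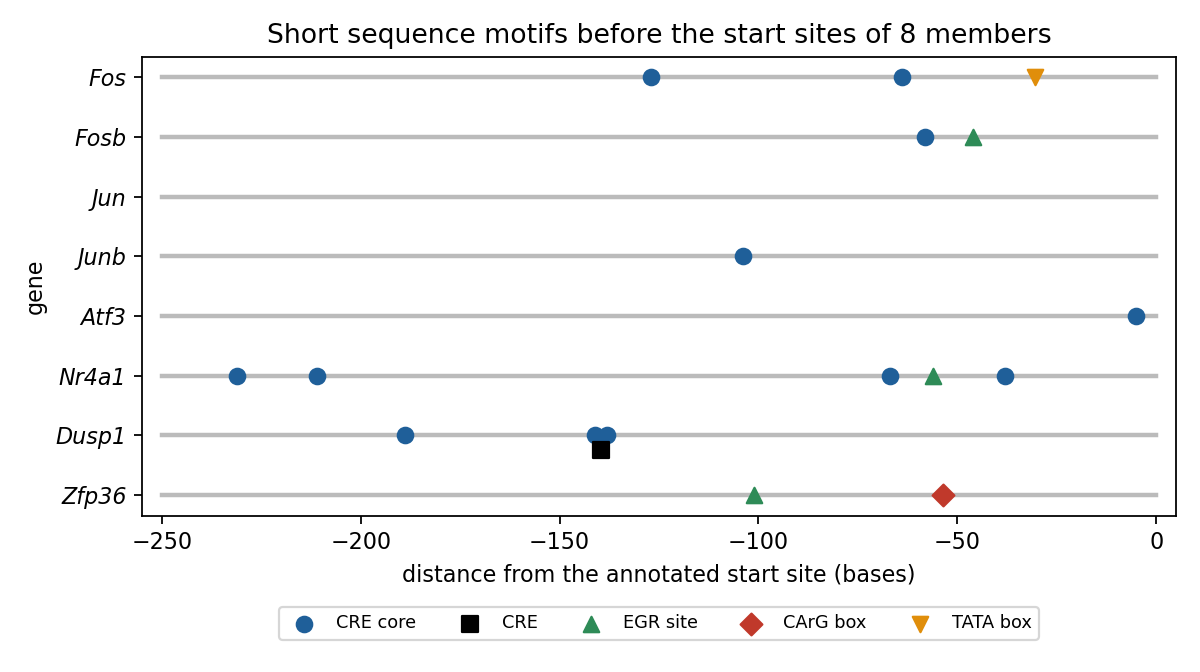
Positions of short motifs in the 250 bases before the annotated start site of 8 genes of the group, with distance from the start site in bases on the x axis and 1 gray line per gene. TGACG cores (blue) are on 6 of the 8 lines, the single full CRE is that of Dusp1, and no motif searched was found on the line of Jun.

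No readable gene of the group differed 2-fold between the diets, although Dusp1 was 1.77-fold and Egr1 1.47-fold lower with GW9662. The study's methods required a signal of 300 or more with either diet, and 9 of the 10 genes reached it, and Fosb was below 100 on both. None of the 9 differed 3-fold in either direction, where 2.68% of the 6053 genes with that signal were lower in GW9662 tumors and 0.215% were higher. At 2-fold the group again had 0 of 9 lower and 0 of 9 higher, against 4.68% and 1.02% of all genes. With such small shares, 0 of 9 does not set the group apart from other genes. Log2 ratios of the 9 ran from -0.83 for Dusp1 to 0.43 for Fos, with 5 above 0 and 4 below. Their median was 0.01, beside 0.03 over the 8009 genes with a mean signal of at least 100. The ratio exceeded the spread between probe sets for Fos, Egr1 and Dusp1, and lay within it for the other 6 genes at their brighter or single probe set. Over the 6053 genes the quartiles of the log2 ratio were -0.23 and 0.29. How many of them exceeded the spread was not counted, so these 3 genes are not shown to stand out.

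**Figure D2:**
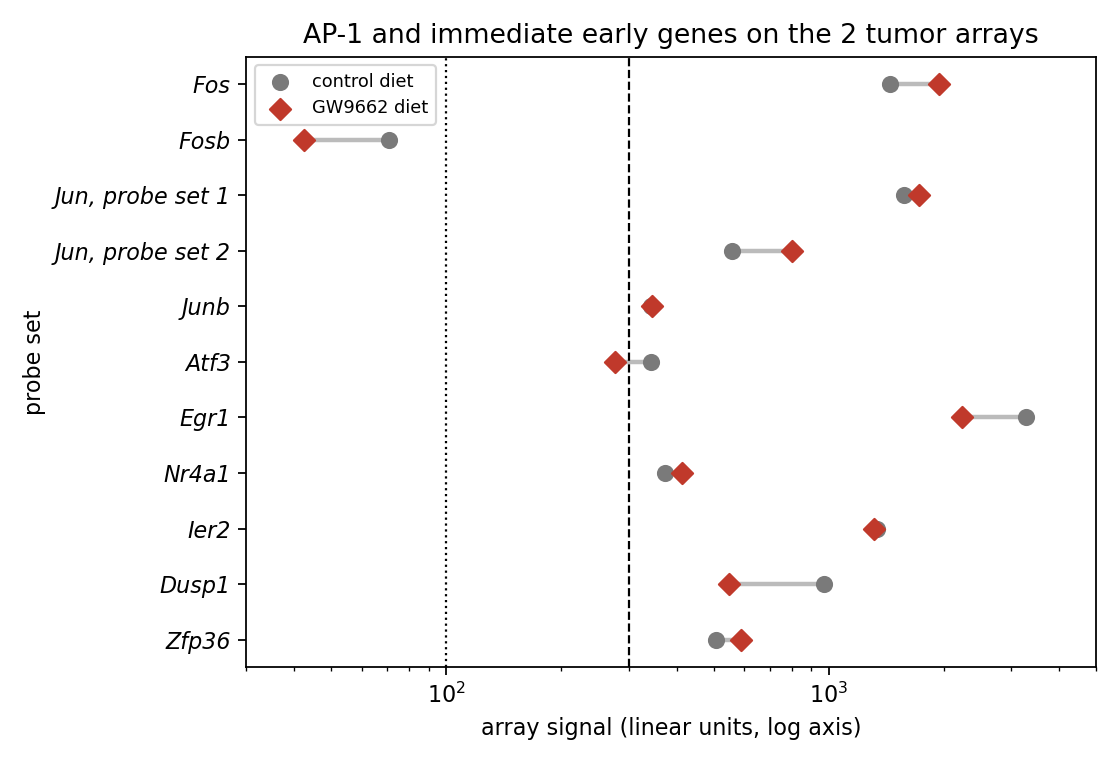
Signals of the 11 probe sets of the group on a log axis, with the control diet in gray and the GW9662 diet in red, a dotted line at 100 and a dashed line at 300. Egr1 and Dusp1 lie to the left in GW9662 tumors, Fos and the second Jun probe set lie to the right, and Fosb is below 100 with both diets.

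Fos encodes the partner that cannot pair with itself and depends on a Jun protein to form AP-1. Its signal was 1442.1 in control tumors and 1939.6 in GW9662 tumors. It was thus higher with GW9662, by 1.34-fold, a log2 ratio of 0.43, and 14.1% of the 6053 genes had a ratio as high or higher. Fosb, a close relative of Fos, had signals of 70.6 and 42.5. Since both were below 100, no fold was given and no direction is read from them.

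Jun encodes the chief partner of Fos, which can also form dimers of its own. The brighter Jun probe set read 1570.4 with the control diet and 1719.0 with GW9662, and the other read 558.4 and 801.8. Both were higher in GW9662 tumors, but to unequal degrees, 1.09-fold and 1.44-fold, with log2 ratios of 0.13 and 0.52. The second value exceeded the spread between probe sets and the first did not. Junb, whose protein competes with JUN for partners and often restrains it, gave 342.7 and 344.6. This was a level reading, 1.01-fold.

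Atf3 encodes a stress-induced ATF protein that can pair with JUN and often acts as a repressor. It had a signal of 343.9 in control tumors and 275.5 in GW9662 tumors, 1.25-fold lower. The log2 ratio of -0.32 was within the spread between probe sets.

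Egr1 is a zinc finger factor and a classic readout of ERK activity. Its probe set gave 3287.9 with the control diet and 2232.7 with the GW9662 diet, 1.47-fold lower and a log2 ratio of -0.56, and 10.4% of the 6053 genes had a ratio as low or lower. Nr4a1, an orphan nuclear receptor that needs no ligand, differed the other way and by less. Its signals were 372.8 and 413.7, 1.11-fold higher. Ier2, a small nuclear protein of the serum response, was level at 1337.7 and 1312.4.

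Of the feedback genes, Dusp1 encodes a phosphatase that inactivates the MAP kinases p38, JNK and ERK. Its signal was 974.1 in control tumors and 548.9 in GW9662 tumors. The difference was 1.77-fold lower, a log2 ratio of -0.83, and 5.9% of the 6053 genes had a ratio as low or lower. It was the only one of the 9 genes past 1.5-fold, a threshold added because none reached 2-fold, and 9.80% of all genes were lower and 6.41% higher by that measure. Zfp36, which encodes tristetraprolin, a protein that directs AU-rich mRNA to decay, gave 506.6 and 591.3. It was 1.17-fold higher, within the spread between probe sets.

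Many markers of other tissues differed in the same direction as the lower signals of Dusp1 and Egr1. Among 12 endothelial markers, the 11 with a mean signal of at least 100 were all lower in GW9662 tumors, the summed signal was 6337 and 3756, and none was at 0. Of the 7 with a signal of at least 300, the adhesion gene Pecam1 (505.4 and 185.3) and the tight junction gene Cldn5 (773.8 and 255.7) were past 2-fold. Myoepithelial markers summed to 17830 and 15237 over 9 genes, with a median log2 ratio of -0.63. Of the 8 with a signal of at least 300, 5 were at least 1.5-fold lower. These included the basal keratin genes Krt5 (1255.7 and 793.1) and Krt14 (1022.0 and 619.5). The brightest, the actin gene Acta2, was level at 9558.9 and 9275.4. Of the 8, 2 were higher, among them the transcription factor gene Trp63 (1103.3 and 1225.6). Fibroblast markers summed to 37212 and 28683, with 8 of 10 lower, and the matrix gene Dcn (7005.2 and 2924.9) and the protease gene Fap (690.7 and 259.4) were past 2-fold, although the collagen gene Col1a1 was higher (677.6 and 1120.0). No myoepithelial, fibroblast or milk protein marker was at 0. The lower adipocyte, muscle and milk protein genes are given above. Macrophage markers, by contrast, summed to 22063 and 20828 over 13 genes, and 0 of the 10 with a signal of at least 300 differed 1.5-fold. Among all genes with that signal, 9.80% were at least 1.5-fold lower and 6.41% higher. The part of these tissues in the readings of Dusp1 and Egr1 was not tested.

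**Figure D3:**
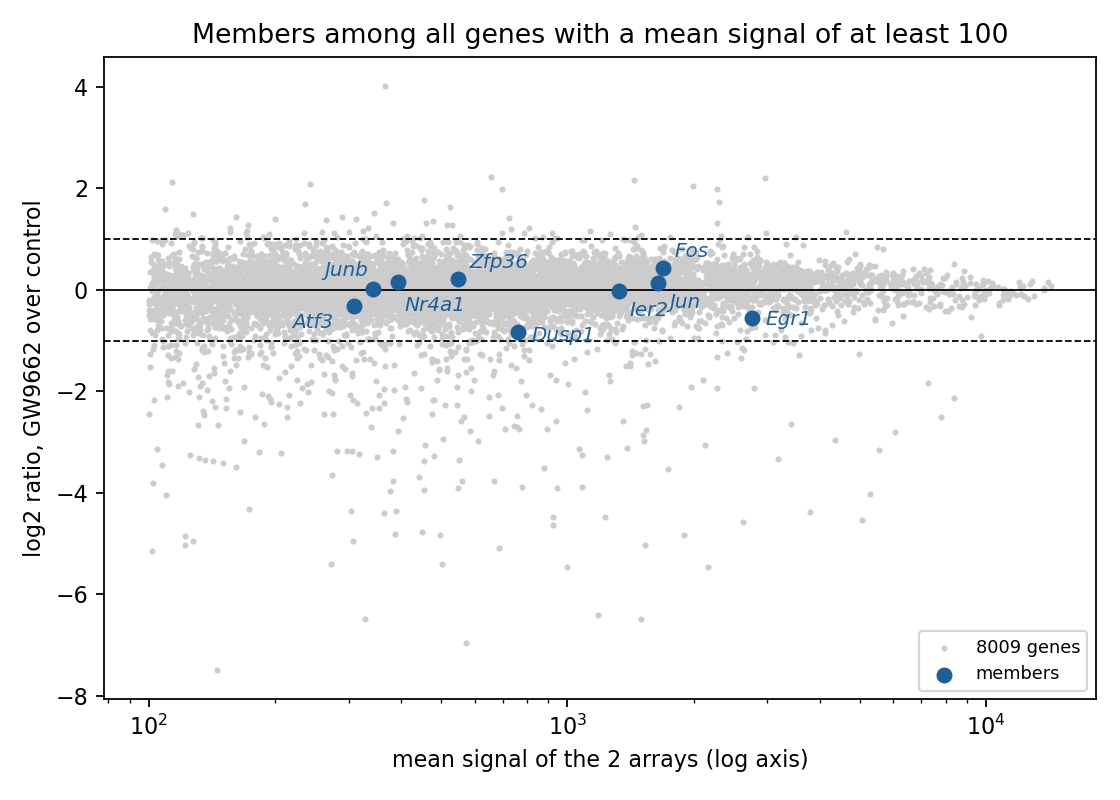
Log2 ratio of GW9662 over control against the mean signal of both arrays on a log axis, for the 8009 genes with a mean signal of at least 100 (gray) and the 9 genes of the group among them (blue). Dashed lines mark 2-fold, and all 9 lie between them, with Dusp1 the lowest at -0.83 and Fos the highest at 0.43.

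The rest of the AP-1 family was nearly level as a list, with each gene at its brightest probe set. Of 15 genes listed, 14 were read, and 8 had a mean signal of at least 100, of which 4 were higher and 4 lower with a median log2 ratio of 0.07. None of the 5 with a signal of at least 300 differed 1.5-fold, where 9.80% of all genes were lower and 6.41% higher. Jund, the Jun protein that is present without stimulation, read 1479.2 and 1859.4, 1.26-fold higher. Atf4, which carries out the integrated stress response, read 1883.3 and 1846.0 at its brightest probe set, but 924.7 and 1247.4 at another. Atf2, a target of JNK and p38, read 1244.1 and 1117.4 at its brightest probe set. Its dimmer ones included 1129.1 and 1171.9, and 247.6 and 175.3. The repressor Jdp2 gave 1207.7 and 1084.1, and the small Maf protein gene Mafg gave 538.0 and 632.9. The remaining Fos genes, Fosl1 (19.1 and 14.7) and Fosl2 (58.6 and 63.6), were below 100 on both arrays at their brightest probe sets, as Fosb was. Of the 4 Fos genes on the array, Fos alone therefore had a signal above that floor.

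A wider list of 61 immediate early genes held some with larger log2 ratios. Of the 58 read, 49 had a mean signal of at least 100, of which 23 were higher and 26 lower in GW9662 tumors, with a median log2 ratio of -0.03. Among the 40 with a signal of at least 300, 2 were at least 2-fold higher and 0 were 2-fold lower, beside 1.02% and 4.68% of all genes. The higher ones were Ccn1, a matrix protein induced by serum and by stretch, and Rgs2, a brake on Gq-coupled receptors. Ccn1 read 695.7 and 1563.5 at its brighter probe set, 2.25-fold, and 513.6 and 826.3 at the other. Rgs2 read 2889.3 and 6346.5, 2.20-fold, and 1790.5 and 3578.7. All 4 of these probe sets were higher with GW9662. Ccn2, a close relative of Ccn1, was level at 4353.5 and 4520.5.

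At 1.5-fold the wider list had 4 of 40 genes higher and 3 of 40 lower, close to the 6.41% and 9.80% of all genes. Besides Ccn1 and Rgs2, the higher ones were Egr2 and Btg2, which like Rhob below were named after their values were seen. Egr2, a sister gene of Egr1, read 557.8 and 854.0, and 346.4 and 742.1 at its other probe set, 2.14-fold. It thus differed in the direction opposite to Egr1. Btg2, an antiproliferative target of p53, read 745.7 and 1122.9 at 1 probe set but 406.3 and 420.2 at the other. The lower ones were Cebpd, a factor of fat cell differentiation and of the acute phase response (1697.5 and 997.5), Irf1, an interferon-induced factor (1146.0 and 698.5), and the small GTPase gene Rhob (1505.0 and 945.1). Other bright members of the list were within 1.5-fold, such as Nfkbia, the NF-κB inhibitor (7742.3 and 6912.7), and the antiproliferative gene Btg1 (4853.0 and 4442.7).

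No gene on the list of those that carry the signal to these promoters differed 2-fold at its brightest probe set. Of 28 listed, 20 were read, and 17 had a mean signal of at least 100, with a median log2 ratio of 0.06, 10 higher and 7 lower. The 2 past 1.5-fold among the 16 with a signal of at least 300 were Mapk8 and Crem, both higher. Among all genes with that signal, 6.41% were higher and 9.80% lower by that measure. Mapk8, which encodes the JUN kinase JNK1, read 189.4 and 323.1, 1.71-fold higher, and 65.1 and 160.5 at a dimmer probe set. Crem, a CREB relative with activating and repressing isoforms, read 318.7 and 533.1, 1.67-fold higher, and 150.0 and 210.1 at a dimmer probe set. Nras read 830.7 and 1124.0, while Map2k1, the kinase that activates ERK, was level at 1211.8 and 1259.5, as was the p38 gene Mapk14 at 978.9 and 1036.9. Mef2c, a factor of muscle and endothelium, gave 375.4 and 278.9 where it was brightest and differed more at dimmer probe sets, with 211.0 and 97.4 at 1 and 151.0 and 56.5 at another.

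Genes listed for ERK feedback, a list without Dusp1, lay mostly on the higher side. Of 11 listed, 9 were read, and 8 had a mean signal of at least 100. Of these 8, 6 were higher in GW9662 tumors and 2 lower. Among the 8009 genes with such a mean signal, 47.1% were lower. The median log2 ratio of the 8 was 0.39, close to the spread of 0.36 between probe sets. Whether the list differs from other genes was not tested. Of the 8, 0 reached 2-fold, beside 4.68% of all genes lower and 1.02% higher. The 2 lower genes were Spry1, level at 443.0 and 440.9, and Etv5, at 334.9 and 280.9. Spred1, an inhibitor of Ras signaling, read 671.9 and 1123.3 at its brightest probe set, 1.67-fold, then 500.1 and 615.7, and 128.8 and 101.0 at the dimmest, which was the only one that was lower. Dusp6, a phosphatase selective for ERK, had 2798.4 and 3666.5, 1.31-fold higher, in contrast to the lower Dusp1. Spry2, a Sprouty inhibitor, gave 412.9 and 590.0, and Ier3 gave 1813.3 and 2391.1. Ier3 and Dusp6 are also on the wider list.

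Among 25 genes linked to AP-1 as targets, 22 were read. Of the 17 with a mean signal of at least 100, 6 were higher and 11 lower, with a median log2 ratio of -0.11. Mmp3, the protease stromelysin 1, read 711.3 and 341.7, 2.08-fold lower, and Timp1, an inhibitor of such proteases, read 495.7 and 1075.8, 2.17-fold higher. These were the only 2 past 2-fold among the 9 with a signal of at least 300. Of all genes with that signal, 4.68% were lower and 1.02% higher by that measure. Cyclin D1 (Ccnd1), which drives entry into the cell cycle, was near level at its brightest probe set (3942.5 and 4502.8) and read 1607.5 and 1208.8 at its dimmest. Vim, a filament protein of mesenchymal cells, gave 6756.3 and 6262.8 at the probe set with the higher mean and 7203.0 and 4481.9 at another.

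Heat shock and other genes that respond to handling were level as a list. All 15 that were read had a mean signal of at least 100, 8 were higher and 7 lower, and the median log2 ratio was 0.00. None differed 2-fold at its brightest probe set, beside 4.68% of all genes lower and 1.02% higher. Hspa1b, the inducible HSP70 gene, whose probe sets can also read its near-identical copy Hspa1a, gave 5675.0 and 6790.1 at its brightest probe set. Hsp90aa1 (6052.9 and 6067.0, but 2221.9 and 1351.1 at another probe set) and the constitutive chaperone gene Hspa8 (12422.2 and 11736.3) were level at theirs. The dimmest Hspa8 probe set read 179.8 and 391.7, 2.18-fold higher. The largest log2 ratios were those of Hmox1, the heme oxygenase, which read 529.9 and 302.4, and of the metallothionein gene Mt2, which read 3731.9 and 5683.5.

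**Figure D4:**
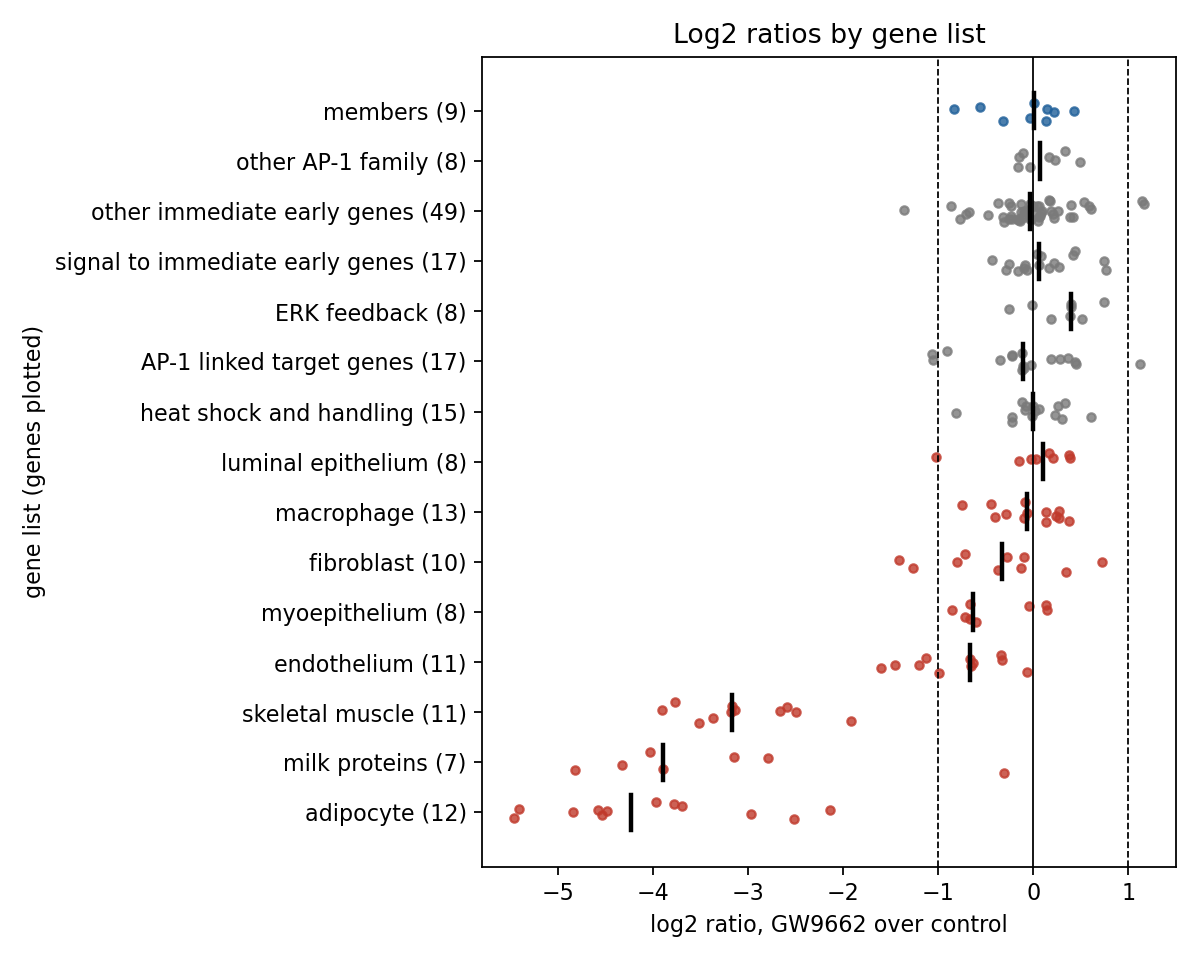
Log2 ratio of GW9662 over control for each gene with a mean signal of at least 100, by list, with a bar at each median and dashed lines at 2-fold. The 9 genes of the group (blue) have a median of 0.01 and the related lists (gray) medians from -0.11 to 0.07, except ERK feedback at 0.39. Of the cell type markers (red), luminal epithelium (0.10) and macrophage (-0.07) center near 0, fibroblast (-0.33), myoepithelium (-0.63) and endothelium (-0.66) lie to the left, and muscle (-3.17), milk proteins (-3.89) and fat (-4.23) lie farthest left.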

How the data were processed

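RNA of excised mammary tumors, pooled from 5 mice per diet, was read on 1 Affymetrix mouse expression array for each diet. The values that the authors deposited are linear signal intensities from GeneChip Operating Software, with 1 value for each probe set of an array. How probe pairs were summarized and arrays scaled is not given in the sources used here. Signals were used as deposited, and the 3 signals of 0 were read as 0.1 for log2 ratios.

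Of 22690 probe sets, 20380 had 1 gene by the platform annotation, with symbols updated by gene identifier to RefSeq GRCm38.p6, 691 had several, 1555 had none named here and 64 were controls. For genes with several probe sets, the one brightest on average was taken. Genes were counted at 3-fold and 2-fold where either signal was 300 or more. No fold was given below 100 on both arrays. List medians used genes with a mean signal of at least 100. No test was possible with 1 array per diet, and the number of arrays limits the precision of every value. The members and gene lists were chosen with earlier results of these data known. Named genes were all members, and of each list described up to 4 of the brightest and up to 4 with the largest log2 ratio among those with a signal of at least 300, plus all past 2-fold where these were 5 or fewer. Genes named outside this rule are Egr2, Btg2, Rhob, Fosl1, Fosl2, Esr1, Spry1 and Etv5, and further ones in the closing section. The 1.5-fold threshold was added after the values were seen. Alternatives covered the scaling, low signals, the signal minimum and the choice of probe set. Counting was tested on simulated arrays. Calculations used pandas 2.3.3 and numpy 2.4.6 in Python 3.11.15, and plots matplotlib 3.10.9.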

Additional observations from a re-analysis of the deposited data

How the results depend on the processing

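In the group, 0 of 9 genes were past 2-fold or 3-fold in either direction. These 4 counts were 0 under each of 9 other settings. The settings were 2 scalings, 2 treatments of low signals, 3 choices of probe set, and signal minimums of 100 and none. Most of them had little room to change the counts. The choices of probe set could only alter Jun or drop Zfp36, and the lower signal minimums could only add Fosb. The median log2 ratio of the group ran from -0.01, with probe sets shared between transcripts left out, to 0.09 under quantile normalization. That of the other AP-1 family genes ran from 0.05 to 0.17 and that of the other immediate early genes from -0.03 to 0.02. The log2 ratio of Fos stayed between 0.41 and 0.44, that of Egr1 between -0.61 and -0.55 and that of Dusp1 between -0.83 and -0.77, and Jun ran from 0.11 to 0.33. At 1.5-fold the lower genes of the group numbered 2 under quantile normalization, which added Egr1, and 1 under the other settings run. With signals below 100 set to 100, the log2 ratio of Fosb was 0.00. Zfp36 has no value without shared probe sets, because its single probe set is of that kind. No paired analysis was possible because each diet has 1 array, and no array could be left out. Signals below 100 limit what can be said of Fosb, Fosl1 and Fosl2.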

Other observations

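Some immediate early genes below a signal of 300 on both arrays were also past 1.5-fold. How many other genes at such signals were was not counted. Gem, a GTPase that restrains calcium channels, read 169.0 and 65.7 in control and GW9662 tumors, at least 1.69-fold lower. Klf2, a factor that endothelial cells induce under flow, read 298.7 and 164.2, 1.82-fold lower. Several members of the same families as Egr1 and Nr4a1 were dim in these tumors on both arrays, among them Egr3 (34.6 and 40.5), Egr4 (3.1 and 18.6), Nr4a2 (29.0 and 40.7) and Nr4a3 (4.1 and 4.3). Of the proteases linked to AP-1, the urokinase gene Plau read 263.6 and 127.6, 2.07-fold lower, and the collagenase gene Mmp13 read 275.5 and 146.6, 1.88-fold lower, in the same direction as Mmp3. Not all proteases of that list did so. Mmp9 read 231.1 and 280.5, 1.21-fold higher, and Mmp14 read 1313.5 and 1129.8, only 1.16-fold lower.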
